A study of Homo sapiens with 16 samples.

Results

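The regions described here are stretches of the genome at which chromatin immunoprecipitation followed by sequencing (ChIP-seq) with an antibody against RELB gave a peak in each of 4 libraries. The peak lists of 2 DAB2IP knockdown and 2 control libraries were taken, intervals longer than 5000 bp were dropped, chromosomes 1 to 22 and X were kept, and intervals that shared at least 1 bp were merged. Of 1522150 merged regions, 417 held an interval from all 4 lists, which is 0.0274% (the background share for the count of members). The merged regions called in exactly 1, 2 and 3 lists numbered 1353109, 154912 and 13712. The members were selected on the RELB peak calls themselves, so the RELB values below are a description with no test.

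The cells were T47D, an established estrogen receptor-positive line of luminal A breast cancer. They were transduced with lentivirus carrying shRNA against DAB2IP or an empty vector, kept under 2 µg/ml puromycin for 72 hours, and fixed with disuccinimidyl glutarate and formaldehyde before the chromatin was sonicated. Knockdown and control cells therefore shared transduction, selection and fixation. The empty vector is named in the methods of the study, whereas its results describe control T47D cells of a spheroid assay as carrying scrambled shRNA. The sample labels say only control. Each condition had 2 replicates, and each replicate was immunoprecipitated with antibodies against RELA (p65), RELB and NFKB2, which gave 12 peak lists in 6 groups beside 4 inputs. Which of the shRNAs was used for ChIP-seq, and whether the replicates were separate transductions, is not given in the sources used here, so p-values measure only the spread between these libraries. The lists hold no expression values, so neither the line nor the knockdown could be checked from them.

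RELB is an NF-κB subunit that carries a transactivation domain and acts mostly in the noncanonical branch of the pathway. There it pairs with p52, which is cut from the NFKB2 precursor once the kinase NIK has activated IKKα, whereas RELA paired with p50 serves the canonical branch and is held in the cytoplasm by IκB proteins. DAB2IP is a Ras GTPase-activating protein that also binds TRAF2 and so restrains both Ras and NF-κB signalling. Satellite DNA is the tandem repeat sequence that fills centromeres and the blocks beside them; its copies are nearly alike, so short reads from it are hard to place and assemblies differ in how many copies they hold.

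Peak positions were on hg38, and gene spans came from a RefSeq table of GRCh38.p14. Repeat annotation was not used here. The position of satellite blocks was approached through the longest stretch without any annotated gene on each chromosome, which on most chromosomes spans the centromere. The members were sorted into 4 places by this measure: 67 lay in such a stretch, 45 lay outside one but within 5 Mb of it, 67 lay on the long arm of chromosome X beyond that distance, and 238 lay elsewhere.

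Of the 417 members, 2 reached the upstream bases of an annotated transcription start, and their sequences are shown for that reason. The share of all merged regions that reached such bases is not given here, so the count is not read as low or high. The search covered 34961 windows of 250 bases upstream of RefSeq starts (GRCh38.p14). The first window, chr3:150050716-150050965 on the minus strand, precedes the long noncoding RNA LOC124909445. The second, chr6:166627252-166627501 on the minus strand, precedes a start of RPS6KA2, a ribosomal S6 kinase of the MAPK pathway. Capitals mark the bases inside the RELB region, and both windows are written 5′ to 3′ on the strand of the gene.
LOC124909445: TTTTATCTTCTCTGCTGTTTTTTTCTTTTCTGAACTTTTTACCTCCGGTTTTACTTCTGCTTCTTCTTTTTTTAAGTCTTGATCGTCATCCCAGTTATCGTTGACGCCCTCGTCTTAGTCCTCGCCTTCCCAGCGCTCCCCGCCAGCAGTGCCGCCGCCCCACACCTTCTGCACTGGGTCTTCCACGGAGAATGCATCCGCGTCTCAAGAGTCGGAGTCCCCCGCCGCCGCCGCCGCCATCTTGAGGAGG
RPS6KA2: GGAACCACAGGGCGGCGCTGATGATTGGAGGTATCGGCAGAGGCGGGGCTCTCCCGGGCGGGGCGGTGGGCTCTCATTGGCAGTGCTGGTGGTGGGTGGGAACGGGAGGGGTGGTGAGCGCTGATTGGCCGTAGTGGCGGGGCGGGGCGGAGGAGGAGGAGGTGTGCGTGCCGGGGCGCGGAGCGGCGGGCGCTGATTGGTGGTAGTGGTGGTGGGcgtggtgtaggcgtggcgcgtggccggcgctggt
The capitals fill all 250 bases of the first window and 216 bases of the second. The LOC124909445 region also overlaps the annotated pseudogene EIF3JP2, so it is not read here as a promoter alone. This region ranked 216 of 417 by its weakest RELB call. Its fold enrichments were 2.63 and 2.38 in knockdown replicates 1 and 2 and 2.97 and 1.86 in control replicates 1 and 2, from 5, 5, 6 and 4 fragments at the summit. The RPS6KA2 region ranked 304, with fold enrichments of 2.44, 1.78, 1.78 and 2.62 in the same order, from 3, 3, 4 and 4 fragments. Both were weak calls, with a −log10 q of 0 in the 4 libraries and no base common to the 4 lists. Each was held by 0 of 4 RELA lists and 1 of 4 NFKB2 lists.

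The RELB lists were of unequal length. Knockdown RELB replicate 1 listed 75060 intervals, against 552227 in knockdown replicate 2 and 557151 and 524731 in control replicates 1 and 2. Of the 13712 regions called in exactly 3 lists, 10581 lacked knockdown replicate 1, whereas 1005, 1032 and 1094 lacked each of the others. Most of these regions thus missed membership through 1 library, whose list was also the shortest. Without that library, 10954 regions were called in the other 3 lists, and without any other library 1327 to 1449 were.

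Sliding the lists against each other gave fewer such regions. When the other 3 lists were moved around each chromosome in 10 fixed steps of 1/11 of its span, 147.2 regions were called in all 4 on average (135 to 166 over the steps), so the 417 members were 2.83 times that number. Merging can chain intervals that touch only through a neighbour, and 272 members had no base inside an interval of all 4 lists. The remaining 145 did have such a base, against 22.5 after shifting (12 to 34), a ratio of 6.44. Members had a median length of 570 bp (162 to 1881 bp), with 379 bp for those with a common base and 681 bp for those without. Together they covered 258 kb, and 356 had exactly 1 interval from each list.

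Smaller shifts moved the other lists by multiples of a step of 100 to 1000 kb, and they separated the 4 places. They keep the density of peaks over wide distances but not inside a tight group of members, the largest of which spans 71.9 kb. Intervals can also leave a short stretch, such as the 2.16 Mb on chromosome 2, so the density inside the stretches was not kept. In the longest gene-free stretches, 67 members stood against 1.6 on average over 10 such shifts (0 to 4). Within 5 Mb of a stretch, 45 stood against 10.2 (4 to 17), and elsewhere 238 against 133.5 (119 to 160). On the long arm of X, 67 members stood against 50.5 (42 to 62), a ratio of 1.33. With a base common to all 4 lists, the counts were 59 against 0.1 in the stretches, 18 against 1.4 within 5 Mb, 14 against 8.5 on the long arm of X and 54 against 19.9 elsewhere. The members of the stretches thus stood furthest from the shifted count and those of the long arm of X nearest to it.

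Members were spread unevenly over the chromosomes. Chromosome X held 70 (16.8%) against 7.19% of all merged RELB regions, chromosome 16 held 21 (5.04% against 2.37%) and chromosome 17 held 16 (3.84% against 2.26%). Chromosome 2 had the lowest share for its merged regions, with 12 members (2.88% against 8.92%). Chromosome 1 held the most members of any autosome, 38, of which 18 lay in its gene-free stretch. Outside the stretches and their 5 Mb borders, chromosome 16 kept 9 of its 21 members and chromosome 17 kept 8 of 16, while X kept 69 of 70.

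**Figure D1:**
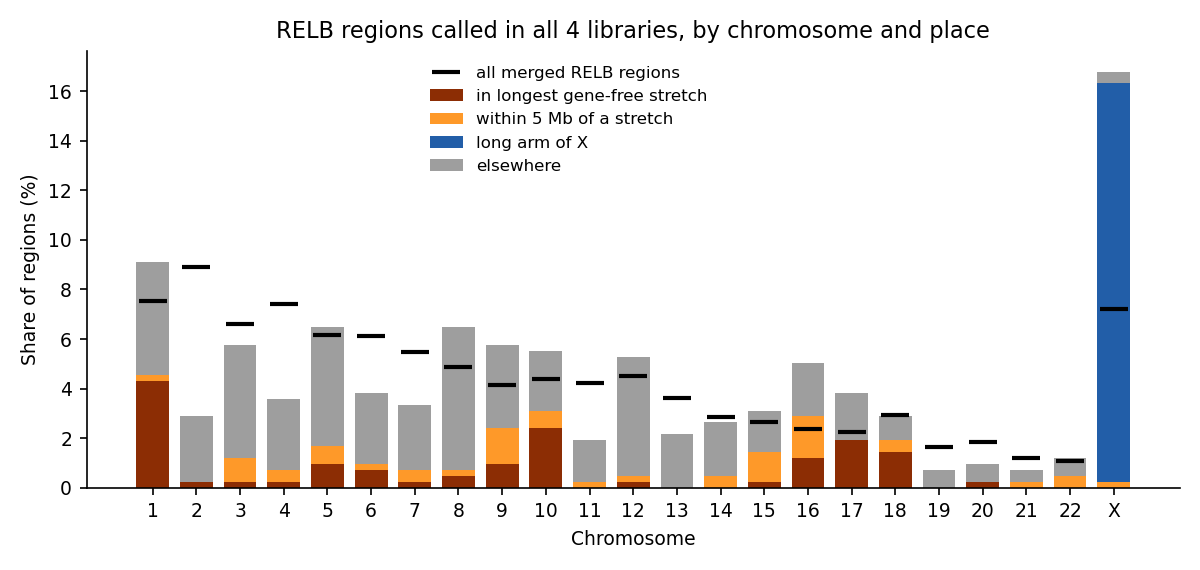
Share of the 417 RELB regions on each chromosome (bars, in percent, stacked by place) and share of all 1522150 merged RELB regions (black marks). Chromosome X stands at 16.8% against 7.19%, nearly all of it on the long arm, and the bars of chromosomes 1, 10, 16, 17 and 18 hold large parts in or near the gene-free stretches.

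The strength of the calls was described next. The q is the p-value adjusted by the peak caller for multiple testing, and 377 members (90.4%) had a q of at most 0.05 in none of the 4 libraries. Over each whole RELB list, 99.8% of intervals had a q of 1, so that share is not read as a weakness particular to members. In all 4 libraries, 19 members had a q of at most 0.05. All 19 had a base common to the 4 lists, 16 lay in a gene-free stretch and the other 3 within 5 Mb of one, with 0 on the long arm of X and 0 elsewhere. They sat on 5 chromosomes: 6 on chromosome 1, 5 on chromosome 16, 3 on chromosome 10, 3 on chromosome 17 and 2 on chromosome 5. The median of each region's lowest −log10 p over the 4 libraries was 2.75 in the stretches, 1.61 within 5 Mb, 1.46 on the long arm of X and 1.53 elsewhere. The listing threshold itself corresponds to a −log10 p of 1.301.

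**Figure D2:**
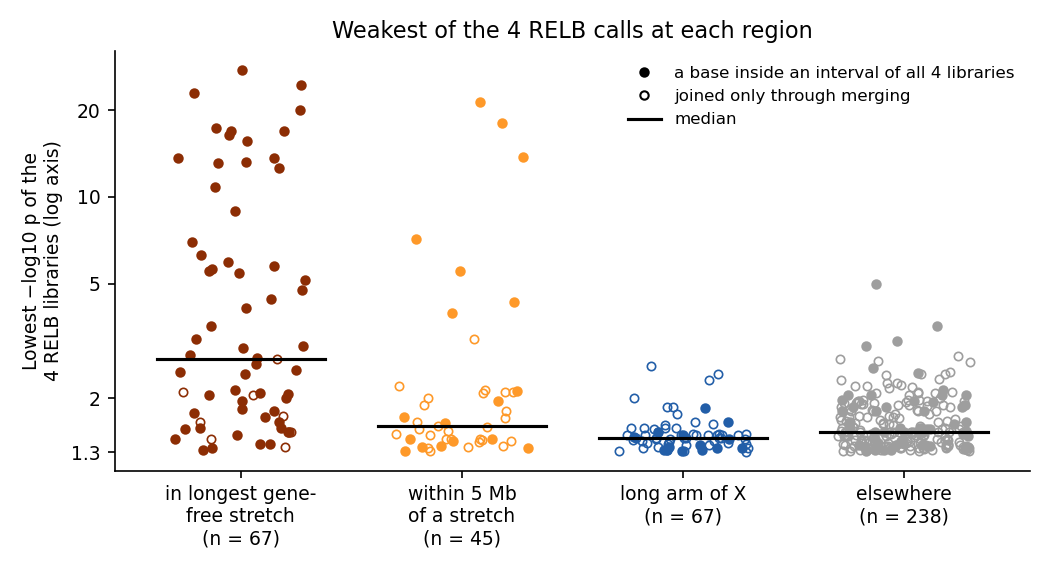
Lowest −log10 p of the 4 RELB libraries at each of the 417 regions (log axis), by place, with the median as a line. Filled points have a base inside an interval of all 4 libraries and open points were joined only through merging; the 19 regions with a q of at most 0.05 in all 4 libraries all lie in the first 2 columns.

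The number of fragments behind these calls could be worked back from what the lists hold: with a pseudocount of 1 and a Poisson model, a fold enrichment and its p-value allow a single fragment number and a single background. Only whole numbers of fragments were tried, so their being whole is not a check of the recovery. For all members in each of the 4 libraries, a whole number was found whose −log10 p lay within 0.002 of the listed value. In knockdown replicate 1 this was after a scaling of 0.983. At the median, members rested on 4, 4, 3 and 3 fragments in knockdown replicates 1 and 2 and control replicates 1 and 2, with 38.4% to 55.9% of members at 3 fragments or fewer. Members in the stretches rested on a median of 24, 30, 32 and 24 fragments, and those on the long arm of X on 2 in each library. The background differed in the same direction. Its median at the intervals of members was 11.03 to 16.7 fragments in the stretches, 0.779 to 0.941 elsewhere and 0.287 to 0.294 on the long arm of X. A high local background went with the members of the stretches and a low one with those of X, and its part in their calls was not tested. All stated depths are in recovered fragments, since the lists give no read totals and the sequencing depth is unknown.

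The strongest member lay at chr5:49646015-49646195, in the gene-free stretch of chromosome 5 and 750 kb from EMB, the nearest protein-coding gene, which encodes an immunoglobulin-family membrane glycoprotein. Its fold enrichments were 4.20 and 4.03 in knockdown replicates 1 and 2 and 5.62 and 4.30 in control replicates 1 and 2, from 90, 90, 101 and 82 fragments. The −log10 q was 20.3, 20.8, 34.3 and 19.9. Each knockdown fold lay below each control fold at this region, and no test was run on the difference. A second of the 10 strongest members lay in the same stretch, at chr5:49630831-49631083, with fold enrichments of 1.97, 2.32, 2.85 and 2.34 from 189, 224, 216 and 204 fragments.

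Chromosome 17 gave 3 of the 10 strongest members. At chr17:26594805-26594981, 699 kb from WSB1, a substrate receptor of a ubiquitin ligase, the fold enrichments were 2.39, 2.71, 2.36 and 2.58, from 189, 198, 183 and 181 fragments. At chr17:25074384-25074552 they were 2.57, 2.54, 2.69 and 2.67, the closest agreement between libraries among the 3. At chr17:23016287-23016524 they were 2.86, 2.82, 2.22 and 2.63. The conditions overlapped at the first of these regions, the knockdown was the lower at the second, and it was the higher at the third.

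Chromosome 16 gave 4 of the 10, in 2 clusters at the ends of its gene-free stretch. The regions chr16:34576410-34576608 and chr16:34586765-34586936 lay within 5 Mb of the stretch, with fold enrichments of 2.21, 2.24, 2.28 and 2.102 at the first and 2.39, 2.47, 2.23 and 2.09 at the second. The regions chr16:46386354-46386574 and chr16:46401357-46401545 lay at its far end, 192 and 177 kb from SHCBP1, with fold enrichments of 1.98, 2.16, 2.14 and 2.17 at the first and 1.89, 1.97, 1.83 and 1.99 at the second. The last of the 10, chr1:143212918-143213294, rested on more fragments than the other 9 in each library, with 242, 264, 256 and 252, and had fold enrichments of 1.93, 1.94, 2.03 and 1.79. Fold enrichment at 9 of the 10 strongest members was thus at most 2.86, while their fragment numbers were many times the median over all members. That median was 4, 4, 3 and 3 fragments in the 4 libraries. Some members outside the 10 rested on more fragments, up to 280, 292, 294 and 294.

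**Figure D3:**
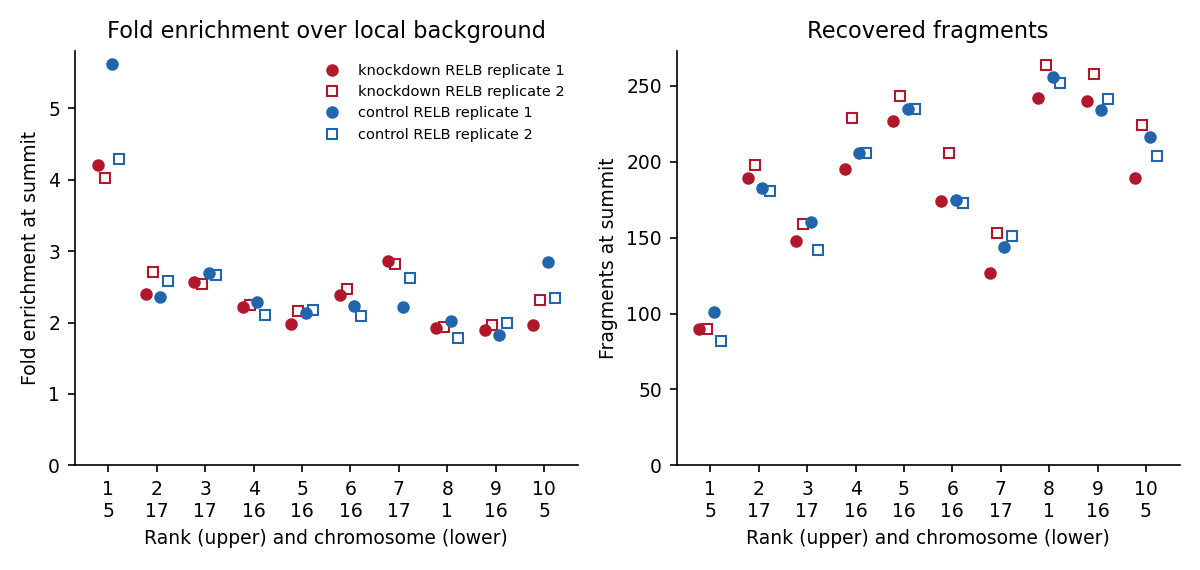
Fold enrichment at the summit over the local background (left) and recovered fragments at the summit (right) for the 10 strongest RELB regions, ordered by rank with the chromosome beneath, in each of the 4 RELB libraries. Apart from the first region, with folds of 4.03 to 5.62, folds lie between 1.79 and 2.86, and neither condition lies above the other throughout.

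Members also lay close together. With gaps of at most 100 kb, 26 clusters held 2 or more members, and 10 held 3 or more, which together took 46 members. The largest had 12 members within 71.9 kb, chr1:143192801-143264728, and was followed by 6 within 16.4 kb at chr16:34576410-34592855 and 5 within 15.2 kb at chr16:46386354-46401545. All 23 members of these clusters had a base common to the 4 lists, and 10 had a q of at most 0.05 in all 4 libraries. Clusters of 4 lay at chr17:26573046-26620092 and chr1:125179962-125183810. Neighbouring members of such a block may share repeat units and are not independent of each other. A cluster of 3 on the long arm of X, chrX:92623184-92631495, had 0 members with a common base.

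The arms of chromosome X differed. Of the 70 members there, 68 lay on the long arm and 2 on the short arm, against 5.01% and 2.11% of all merged RELB regions, which is 0.729 and 0.0345 members per Mb. The excess grew with the number of lists required: the long arm had 1.33 times as many regions per Mb as the short arm among those called in 1 list, 2.47 times in 2 lists, 6.07 times in 3 lists and 21.1 times in 4 lists. It was not particular to RELB, since regions called in all 4 lists numbered 75 on the long and 3 on the short arm for RELA and 2258 and 102 for NFKB2. Among stronger calls a smaller share lay on X. With a −log10 p of at least 2 in each list, 4 of 98 regions did, and with a q of at most 0.05, 0 of 19 did. The share of merged regions on X at these limits is not given here, so no excess or lack is read there. In the RELB lists as a whole, the recovered background had a median of 0.294 to 0.318 fragments at peaks of the long arm, 0.676 to 0.761 at peaks of the short arm and 0.931 to 1.04 on the other chromosomes, and long-arm peaks rested on a median of 1 or 2 fragments. Background and number of members thus moved together between the arms, and the part of the background in the count was not tested. The number of copies of each arm in these cells was not measured here.

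Genes held fewer members than merged regions in general. Of the members, 124 (29.7%, exact 95% interval 25.4 to 34.4%) overlapped a protein-coding gene, against 42.6% of all merged regions. With genes of any type the share was 46.5% against 56.8%, and with 1 kb added around protein-coding genes it was 30.2% against 43.4%. Gene starts with 1 kb on either side held 4 members (0.96%, exact 95% interval 0.26 to 2.44%) against 1.79%, which lies inside that interval. The lower share of members in genes went with the gene-free places. Elsewhere, 41.2% of members overlapped a protein-coding gene against 44.6% of merged regions there, and on the long arm of X 31.3% against 28.8%. Members with a base common to all 4 lists overlapped a protein-coding gene in 17.9% of cases and the others in 36.0%. Intervals of this kind cover counting error only.

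Gene deserts, taken as at least 1 Mb between neighbouring protein-coding genes, held 170 members (40.8%, exact 95% interval 36.0 to 45.7%) against 22.9% of all merged regions. With deserts of at least 500 kb, the share was 47.5% against 32.5%. The longest gene-free stretches alone held 16.1% of members against 1.32% of merged regions, and with 5 Mb added on either side 26.9% against 7.92%. The stretch share was 5.43% and 10.4% when knockdown RELB replicates 1 and 2 were left out in turn and the other 3 lists required, and 9.07% and 10.2% without control replicates 1 and 2. Of the 170 desert members, 67 lay in the stretches, 25 within 5 Mb of one, 25 on the long arm of X and 53 elsewhere, and elsewhere the desert share of 22.3% was near the 21.3% of merged regions there. The desert excess thus lay in and beside the gene-free stretches and, by a smaller margin, on the long arm of X, where the share was 37.3% against 31.5%.

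The 124 protein-coding genes that held a member were long, with a median span of 185 kb against 24.2 kb for all 19974 protein-coding genes. A longer gene has more room for a region. SOX5, a SOX-family transcription factor of cartilage and neuronal development with a span of 1033 kb, held the strongest of these members at chr12:24461742-24462924. Its fold enrichments were 3.19 and 2.67 in knockdown replicates 1 and 2 and 3.32 and 2.60 in control replicates 1 and 2, from 6, 5, 7 and 6 fragments. GTF2H2, a subunit of the general transcription factor TFIIH that has near-identical copies in its neighbourhood, followed at chr5:71046419-71046954. Its fold enrichments were 3.31, 3.87, 3.95 and 2.40 from 3, 4, 4 and 2 fragments, and the copies make its reads uncertain. PREX2, an exchange factor for the GTPase Rac, had fold enrichments of 3.13, 2.94, 3.31 and 2.50 from 6, 6, 6 and 4 fragments at chr8:68195681-68196160. The −log10 q of these 3 members was 0 in each of the 4 libraries. Of the 3, only the PREX2 member had a base common to the 4 lists.

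On the long arm of X, IL1RAPL2, a receptor of the interleukin-1 receptor family with a span of 1202 kb, held a member at chrX:105158534-105159804. Its fold enrichments were 3.77, 2.30, 2.32 and 2.48 from 4, 2, 2 and 2 fragments, without a common base. ZMAT1, a zinc finger protein gene, held one at chrX:101920125-101921649, with fold enrichments of 3.05, 2.25, 2.30 and 2.35 from 3, 2, 2 and 2 fragments. That member had no common base either. The next genes in rank included CNTN4, GPRC6A, EMB, CREB5, CNTN5, ERGIC2, FDFT1, TBC1D3D, LIPC, LIMS4, DDX60L, MPDZ, AGTPBP1 and LIN9. Among them are the neuronal adhesion molecules CNTN4 and CNTN5, the calcium-sensing receptor relative GPRC6A, the squalene synthase gene FDFT1 and the hepatic lipase gene LIPC. TBC1D3D and LIMS4 belong to families of near-identical copies, as GTF2H2 does, and their reads are uncertain in the same way. At DDX60L, a helicase-like gene, the member rested on 4, 4, 5 and 3. Calls in all 4 lists were thus reached in these genes with few fragments. In 6 genes, named here after their values were seen, 2 members lay in the same gene: CNTN4, the glutamate receptor GRM7, the protocadherin PCDH11X, the GABA receptor subunit GABRA3, the transcriptional cofactor DACH2 and the serotonin receptor HTR2C. The last 4 are genes of the long arm of X.

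The gene families of the pathway were counted from fixed lists. Of 31 known NF-κB target genes, 14 genes of NF-κB subunits and inhibitors and 9 genes that the study discusses, 0 held a member within 1 kb. Among all 19974 protein-coding genes, 126 (0.631%) did. These lists are short, so a share as low as that of all genes would leave few or no members to see. Peaks as such were not absent from them, as 24 of the 31 targets, 13 of the 14 subunits and inhibitors and 9 of the 9 study genes held a merged RELB region from at least 1 list. Of all 19974 protein-coding genes, 18565 held such a region, so these counts are not read as a trait of the listed genes. A region called in exactly 3 lists occurred at 1 of the 31 targets and at 0 of the other listed genes, against 15.1% of all protein-coding genes. The listed genes were not matched to all genes for length, which gives room for a region, so this is not read as a depletion. None of 1558 RefSeq microRNA hairpins overlapped a member. The share for all merged regions is not given for hairpins, so this count is not read as low.

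The strongest members outside the stretches, their borders and the long arm of X were few, and they are named here after their values were seen. The region chr8:85734471-85734659 lay 0.655 kb from LOC101929601 and had fold enrichments of 4.53, 3.17, 2.89 and 2.26 from 28, 38, 28 and 30 fragments. Its −log10 q was 4.75 and 3.66 in the knockdown and 0.928 and 0 in the control libraries. At chr19:47955950-47956388, 10.9 kb from BSPH1, they were 2.75, 4.62, 3.50 and 2.73 from 13, 21, 12 and 11 fragments, with a −log10 q above 0 only in knockdown replicate 2. The next in rank, chr9:30450292-30450583, had fold enrichments of 3.40, 3.31, 3.003 and 3.78 from 6, 4, 4 and 5 fragments, with a −log10 q of 0 in the 4 libraries.

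Whether RELA and NFKB2 lists held the members was asked of lists that the rule had not used. A list held a member when an interval of it shared at least 1 bp with it. The 3 immunoprecipitations of a replicate shared their input, and this cannot be told apart from shared binding. The RELA lists held 79 (18.9%) and 205 (49.2%) of the 417 members in knockdown replicates 1 and 2 and 205 (49.2%) and 194 (46.5%) in control replicates 1 and 2. The corresponding shares of all merged RELB regions were 2.01%, 14.9%, 12.4% and 11.4%, and those of regions called in exactly 3 RELB lists were 5.88%, 33.6%, 32.6% and 29.4%. Knockdown RELA replicate 1 stood apart with the shortest list, 105520 intervals against 517399 to 687414.

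The NFKB2 lists held 212 (50.8%) and 206 (49.4%) in knockdown replicates 1 and 2 and 208 (49.9%) and 229 (54.9%) in control replicates 1 and 2. All merged regions were held at 11.1%, 14.4%, 15.1% and 14.8%, and regions called in 3 RELB lists at 25.6%, 33.8%, 35.4% and 35.5%. The exact 95% intervals of the members were about 5 percentage points to either side (for example 45.9 to 55.7% for knockdown NFKB2 replicate 1). Members were thus held above both backgrounds in each of the 8 lists, by 1.41 to 3.22 times over the regions called in 3 lists. These backgrounds were not matched for length, and a longer region is more easily held at 1 bp. Median lengths were 570 bp for members, 501 bp for regions in 3 lists and 185 bp for those in 1 list. The part of length in the shares was not tested. When the RELA and NFKB2 lists were shifted around the chromosomes, they held 3.29% to 20.2% of members on average over 10 shifts, and the unshifted shares were 2.43 to 5.77 times these.

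**Figure D4:**
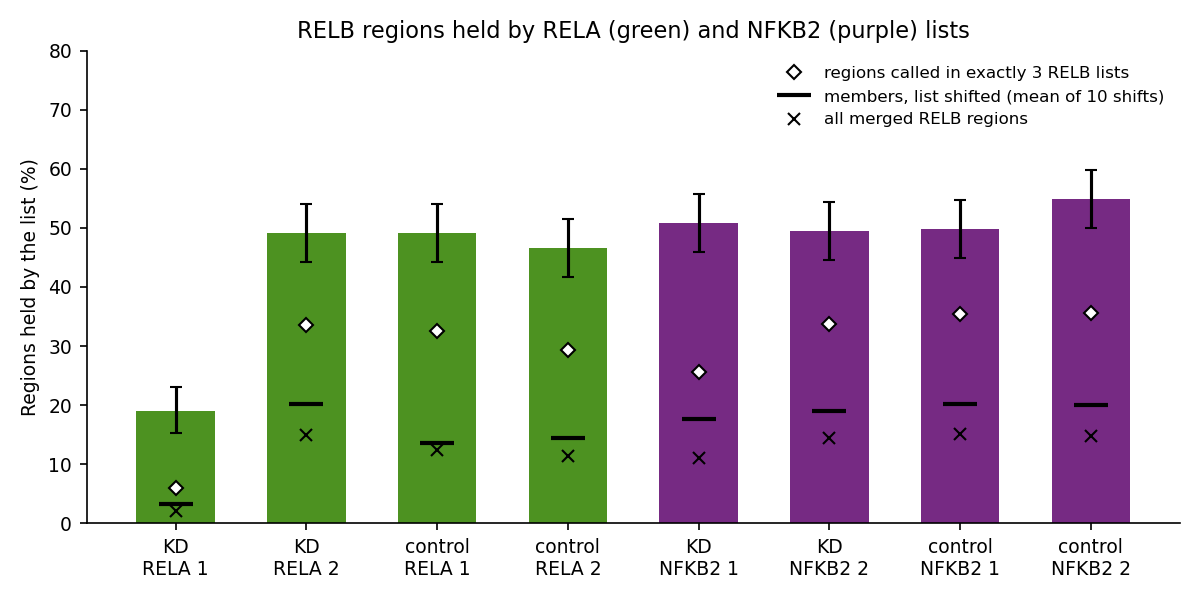
Percent of the 417 RELB regions held by each RELA (green) and NFKB2 (purple) list, with exact 95% binomial intervals, beside the percent held of regions called in exactly 3 RELB lists (diamonds), of the members after shifting the list (lines, mean of 10 shifts) and of all merged RELB regions (crosses). KD is the knockdown; every bar lies above its 3 backgrounds, and the knockdown RELA replicate 1 bar is the lowest at 18.9%.

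The holding differed by place. In the stretches, RELA lists held 69.8% and NFKB2 lists 79.9% of members on average, against 40.3% and 46.9% of regions called in 3 RELB lists in the same place. After a shift of 100 kb the lists held 4.48% and 7.09% there. On the long arm of X the shares were 52.6% and 67.5%, against 40.4% and 57.4% for regions called in 3 lists and 24.6% and 43.7% after the shift. Elsewhere they were 29.5% and 37.6%, against 20.9% and 26.3% and, after the shift, 13.2% and 17.4%. A high share on the long arm of X thus stood beside a high shifted share, whereas in the stretches it stood beside a low one. The shift of 100 kb is longer than the largest cluster of members, which spanned 71.9 kb, so it does not keep the density inside such clusters.

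Held by all 8 RELA and NFKB2 lists were 27 members (6.47%), against 0.182% of regions called in 3 RELB lists and 0.00545% of all merged regions. Of these 27, 22 lay in the stretches, 3 within 5 Mb, 1 on the long arm of X and 1 elsewhere. The member on X was the one in IL1RAPL2, whose fold enrichments in the 8 lists were between 1.56 and 3.11, and the member elsewhere was chr8:10036670-10037549, 16.7 kb from MSRA. Held by none of the 8 lists were 22 members (5.28%), against 12% of regions called in 3 lists and 39.8% of all merged regions, and 19 of the 22 lay elsewhere. Of the 19 members with a q of at most 0.05 in all 4 RELB libraries, 12 were held by all 8 lists and each by at least 6. Knockdown RELA replicate 1 held 13 of these 19, and each other list held 18 or 19.

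**Figure D5:**
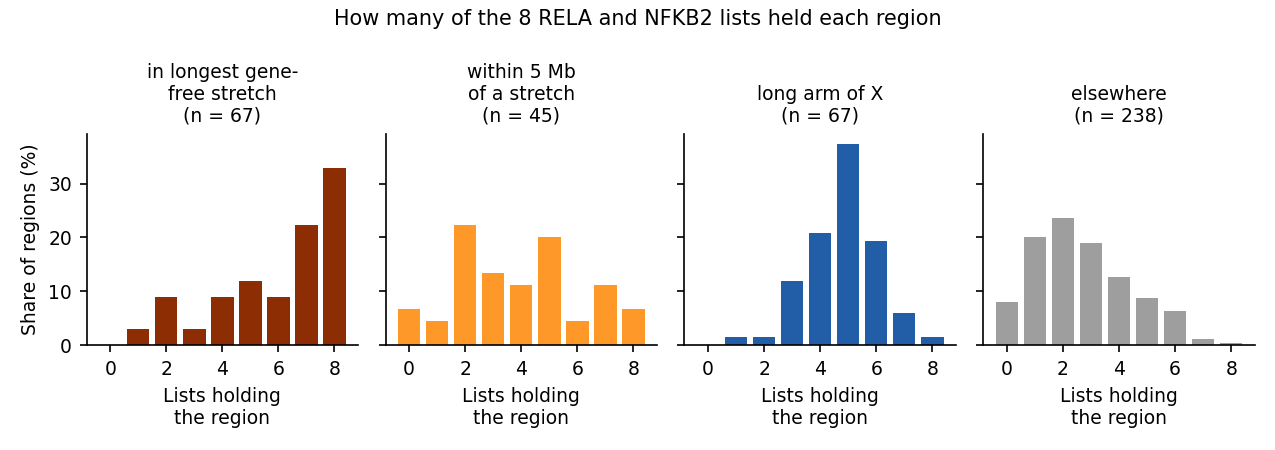
Number of the 8 RELA and NFKB2 lists that held each RELB region (horizontal axis) and the share of regions with that number (percent), by place. Regions in the gene-free stretches pile up at 7 and 8 lists, those on the long arm of X around 5, and those elsewhere at 1 to 3.

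The 5 strongest members in all 12 lists were chr16:34576410-34576608, chr16:46386354-46386574, chr17:23016287-23016524, chr1:143212918-143213294 and chr16:46401357-46401545. At the first, RELA fold enrichments were 2.14 and 3.01 in the knockdown and 2.34 and 1.89 in the control libraries, and NFKB2 fold enrichments were 2.36 and 2.58 in the knockdown and 2.36 and 2.35 in the control libraries, beside 2.102 to 2.28 for RELB. At chr16:46386354-46386574, they were 1.92, 3.34, 2.11 and 2.05 for RELA and 2.17, 2.61, 2.53 and 2.49 for NFKB2, beside 1.98 to 2.17 for RELB. At chr17:23016287-23016524 they were 2.71, 3.65, 1.95 and 2.31 for RELA and 3.55, 3.09, 1.86 and 2.32 for NFKB2. At these 3 regions the RELA values spanned the RELB values, and at the first the NFKB2 values lay above them. Knockdown RELA replicate 2 had the highest RELA value at each of the 5.

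NFKB2 lists held more members than RELA lists, with 51.3% ± 2.51 against 40.9% ± 14.7 (mean ± SD, n = 4 libraries each), a difference of 10.3 percentage points (exact two-sided permutation p = 0.0286, the smallest this design allows). The lowest NFKB2 list held 206 members and the highest RELA lists 205, so the 2 groups were separated by 1 region. After shifting around the chromosomes, NFKB2 lists held 19.2% and RELA lists 12.8% on average, so the shifted lists differed in the same direction. With libraries paired by condition and replicate number, NFKB2 was higher in 4 of 4 pairs (exact paired permutation p = 0.125, the smallest for 4 pairs). From the 100000 intervals with the smallest p-values of each list, which sets both the length and the p-value limit anew, RELA lists held 20.1% and NFKB2 lists 20.2%, a difference of 0.12 points (exact permutation p = 1). Without knockdown RELA replicate 1 the difference was 2.98 points (exact permutation p = 0.0857).

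The knockdown was compared with the control on the same lists. RELA lists held 34.1% ± 21.4 in the knockdown and 47.8% ± 1.87 in the control libraries (mean ± SD, n = 2 each), a difference of −13.8 points (exact two-sided permutation p = 1). This difference came from knockdown replicate 1, without which it was 1.32 points. NFKB2 lists held 50.1% ± 1.02 and 52.4% ± 3.56 (n = 2 each), a difference of −2.28 points (exact two-sided permutation p = 0.667), which was 0.24 points without control replicate 2. With 2 libraries against 2, the smallest p is 0.333. No difference in holding between knockdown and control was detectable at this number of libraries.

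The RELB fold enrichment at the members is given as a description, since the same lists chose them. Its median was 2.72 and 2.32 in knockdown replicates 1 and 2 and 2.15 and 2.20 in control replicates 1 and 2, against medians of 2.65, 2.22, 2.19 and 2.23 over each whole list. On the log2 scale the knockdown median was 1.33 ± 0.16 and the control median 1.12 ± 0.02 (mean ± SD, n = 2 each), which differ by 0.21. Most of this came from knockdown replicate 1, whose whole list had the highest median too, and the difference was 0.092 without it. The members' medians were thus close to those of the lists they came from, and fold enrichments are relative to each library's own background.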

How the data were processed

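The authors mapped paired-end reads with BWA 0.7.12 to hg38 and called peaks in each library with MACS2 2.1.0 (versions from the submitters' processing notes). Each deposited list gives the peak interval and summit, a score, the fold enrichment at the summit (a ratio over the local background), and −log10 p-values and −log10 q-values. The deposited values were used as they are, and the score was not used for any result. The smallest −log10 p-value was 1.301 and 99.8% of intervals per RELB list had a q of 1. Intervals repeated for several summits were counted once (179 in the RELB lists). Read totals are not given, so depth is unknown, and binomial intervals (exact, 95%) cover counting error only.

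The members, places, gene lists and tests were chosen with earlier results of these data known. Regions named were the 10 with the highest value of their lowest −log10 q over the 4 RELB lists, the 5 highest in a protein-coding gene, the 5 highest in all 12 lists, up to 20 protein-coding genes in the same order, and listed NF-κB genes with a member within 1 kb; others are marked in the text. One gene that this rule names is not reported here. Fold enrichments are relative to each library's background, so libraries were compared by overlap, with exact permutation tests over libraries. RELB values were not tested. Shares were set beside all merged regions, regions in 3 lists and fixed circular shifts. Fragments were recovered from fold and p-value (pseudocount of 1, Poisson); the RELB knockdown replicate 1 values needed a scaling of 0.983 for the IP. Replicate numbers were checked for pairing. Member finding was tested on simulated lists, in which 200 planted regions were all recovered. No genome sequence was used here. The tools were scipy 1.17.1, numpy 2.4.6, Python 3.11.15, matplotlib 3.10.9 and pandas 2.3.3.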

Additional observations from a re-analysis of the deposited data

How the results depend on the processing

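The count of 417 regions was 98 with a −log10 p of at least 2, 145 with a base common to the 4 lists, 19 with a q of at most 0.05, 38 from the 20000 smallest p-values of each list (an alternative chosen after seeing the data, as were the 100000 smallest p-values and the 100 kb shifts of the RELB lists) and 1327 to 10954 when each RELB library was left out; it was 417 with intervals of any length. Without knockdown RELB replicate 1 it was 10954, without knockdown replicate 2 1327, and without control replicates 1 and 2 1378 and 1449.

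With a −log10 p of at least 2, RELA lists held 57.7% and NFKB2 lists 67.6% of regions (difference 9.95 points, exact permutation p = 0.371), and 14.3% lay in protein-coding genes, 66.3% in deserts and 45.9% in the stretches. With a common base, NFKB2 lists held 63.3% (difference 11.4, exact p = 0.0571), and those 3 shares were 17.9%, 60.7% and 40.7%. By the middle base, RELA and NFKB2 lists held 22.1% and 26.5% (difference 4.44, exact p = 0.314), by 50% coverage 16.6% and 19.4% (2.76, exact p = 0.371), and from the 100000 smallest p-values 20.1% and 20.2% (0.12, exact p = 1). Without regions in or near the stretches, NFKB2 lists held 44.2% (difference 9.59, exact p = 0.286). Genes of any type held 46.5% of regions, deserts of at least 500 kb 47.5%, and stretches with 5 Mb added 26.9%.

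When 1 library was left out, RELA lists held 26.5% to 48.3% and NFKB2 lists 33.3% to 51.9%, and their difference was 2.98 to 13.05 points. It kept its exact p of 0.0286 without knockdown RELA replicate 2 or either control RELA library, and had a larger p without any other library of the 3 antibodies (0.0857 to 0.457). The gene share was 33.2% to 37.1%, the desert share 31.4% to 35.4% and the stretch share 5.43% to 10.4%, lowest without knockdown RELB replicate 1. The knockdown difference of RELA lists was −28.9 to 1.32 points and reversed to 1.32 without knockdown replicate 1; that of NFKB2 lists was −4.80 to 0.24 and reversed to 0.24 without control replicate 2. The RELB log2 difference was 0.092 to 0.32. Each alternative changes which intervals or libraries are counted; beyond that, the cause of these changes was not tested.

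With the replicate block, the NFKB2 minus RELA difference of 10.3 points had an exact p of 0.125, and the knockdown differences of −13.8 and −2.28 points an exact p of 1 each, with 0.5 the smallest for 2 pairs. RELA and NFKB2 libraries of the same condition and number share an input. Their shares deviated from the group means in opposite directions, but with 2 libraries a group the deviations mirror each other and do not show whether the numbers pair the libraries.

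With 3 or 4 fragments at a typical member, a region missed in 1 list cannot be told apart from one without binding. Placement of reads in satellite blocks and shared input limit what a common call shows.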

Other observations

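Sequences other than chromosomes 1 to 22 and X stood outside the rule. By the same merging, 17 regions on unplaced or unlocalized scaffolds of the KI270 series were called in all 4 RELB lists, of 2928 merged regions there, and 4 on scaffolds of the GL000 series, of 1071. The scaffold KI270438.1 alone gave 5 of 39 merged regions and KI270709.1 gave 3 of 30. Patch and alternate sequences gave 27 of 14181. Chromosome Y gave 0 of 631.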
